A study of Homo sapiens with 20 samples.

Results

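U2932, a cell line of diffuse large B-cell lymphoma, was compared after 18 h and after 8 h with the compound that the labels call TK. The comparison rested on 5 of the 20 libraries of the study, 3 at 18 h (replicates 1, 2 and 3) and 2 at 8 h (replicates 1 and 2), taken by their titles. The solvent DMSO gave the background, with 1 library at 18 h (replicate 2) and 3 at 8 h, and the second lymphoma line of the study, DOHH2, had 3 TK libraries at each time. All libraries were made from polyadenylated RNA of cells in culture, and the dose of TK and the time at which the cultures were started are not given in the labels. No library was taken before treatment, so time with TK and time in culture can be separated only through the DMSO libraries, of which the 18 h group is a single one. Whether replicates came from different cultures is not stated, and the p-values may then reflect technical spread alone.

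As background to the gene groups described here, the endoplasmic reticulum folds secreted and membrane proteins, among them the immunoglobulin of B cells, with chaperones such as HSPA5 (BiP) and HSP90B1 and with protein disulfide isomerases. When unfolded protein builds up there, the sensors ATF6, ERN1 (IRE1) and EIF2AK3 switch on the unfolded protein response, and the factors ATF6 and XBP1 raise the chaperone genes through short promoter elements. Ribosomal protein genes and the nuclear genes of the respiratory chain are broadly expressed and often move as groups with the growth state of a culture.

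The 5 TK libraries held 30970706 to 45905382 counts in genes. On the first principal component of the U2932 libraries (36.3% of the variance), TK 18 h lay at -35.5 to -28.2, the DMSO 18 h library at -12.8 and DMSO 8 h at 19.1 to 30.5. The TK 8 h libraries did not lie together there, with replicate 2 at 28.9 and replicate 1 at -1.38. Reads outside any gene came to 9.21 to 9.999 per 100 counts in genes at TK 18 h, 12.5 and 14.1 at TK 8 h, 12.3 in the DMSO 18 h library and 13.3 to 16.2 at DMSO 8 h. This share thus moved with the comparison. All 10 B-cell markers were over 1 CPM (a gene's counts relative to the library size, scaled by TMM) in every U2932 library, and 10 markers of fibroblasts and endothelium summed to 2.05, 2.11 and 8.24 CPM at TK 18 h, 1.40 and 2.31 CPM at TK 8 h and 4.72 CPM in the DMSO 18 h library. The sum of 10 T-cell markers was 45.4 to 59.1 CPM at TK 18 h and 31.1 and 44.4 CPM at TK 8 h, most of it from the kinase LCK, at 37.2 to 51.5 and 27.1 to 38.6 CPM. Single libraries stood apart for a few genes. TK 18 h replicate 3 alone had IGF2 at 8.62 CPM and VGF at 25.1 CPM, against at most 0.0855 and 1.17 CPM in the others. That library alone also had CCND2 at 3.15 CPM, against at most 0.266 CPM, and MMP2, PXDN, H19 and HMGA2 at 2.44 to 4.25 CPM. The DMSO 18 h library had 0 counts of the immunoglobulin gene IGKV3-20, which had 20439 to 29949 counts in each of the other U2932 libraries. What lies behind this was not tested, and every comparison with DMSO at 18 h rests on that library.

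From 8 h to 18 h with TK, 10 genes rose (0.0607% of the 16478 tested) and 26 fell (0.158%) at an adjusted p under 0.05 by edgeR's quasi-likelihood test. Fitted on the 9 U2932 libraries alone, the same test called 734 genes higher (4.45%) and 681 lower (4.13%), all 36 among them. The spread between replicates was smaller in U2932 than in DOHH2, with a common biological coefficient of variation of 0.121 against 0.172, and the joint fit lies between them at 0.152. Both counts depended on TK 8 h replicate 2. Without it the joint fit called 0 genes, with 917 at an unadjusted p under 0.05, and the fit on U2932 alone called 2. Without TK 8 h replicate 1 they called 118 and 2692. Without TK 18 h replicates 1, 2 and 3 in turn, the joint fit called 10, 2 and 3 genes and the fit on U2932 alone 512, 20 and 217. With the share of reads outside genes as a covariate, 0 genes passed the test in either fit, with 1558 at an unadjusted p under 0.05 in the joint fit and 1912 on U2932 alone. All 36 changes kept their sign with a median size of 0.66 against 0.87 without it (log2). In the joint fit, 2394 of the 16478 genes passed the test of the covariate itself at an adjusted p under 0.05. The share in every TK 18 h library was below that in both TK 8 h libraries. The fit can therefore not cleanly separate the share from the change with time, and the loss of calls decides nothing. The same limit holds for the list medians given below with the covariate. Whether that share has a part in the changes was not tested beyond this fit.

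Of the 10 genes that rose, MANF and HSPA5 were in the list of endoplasmic reticulum folding, and FKBP2, outside the list, also acts there. HSPA5, the main Hsp70 chaperone of the endoplasmic reticulum, was at 929, 1223 and 1078 CPM in the 3 TK libraries at 18 h and at 568 and 610 CPM in the 2 at 8 h. The 18 h and 8 h groups did not overlap, and the difference was 0.87 ± 0.16 (log2, SE; adjusted p = 0.0225). MANF, a small secreted protein of the reticulum that is known to bind HSPA5, was at 89.5, 115 and 94.3 CPM at 18 h and at 53.5 and 45.8 CPM at 8 h. It had the largest rise among genes with a mean of 5 CPM or more, 1.01 ± 0.15 (log2, SE; adjusted p = 0.0122), or 2.01-fold. FKBP2, a peptidyl-prolyl isomerase of the reticulum, was at 33.2, 39.5 and 34.5 CPM at 18 h and at 21.9 and 18.3 CPM at 8 h, a rise of 0.83 ± 0.17 (log2, SE; adjusted p = 0.04998).

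The same 3 genes were also higher in the DMSO 18 h library than in every DMSO 8 h library. In the DMSO 18 h library HSPA5 was at 937 CPM, inside the range of the TK 18 h libraries, and at DMSO 8 h it was at 512, 581 and 630 CPM. MANF was at 96.6 CPM in the DMSO 18 h library, also inside the TK range, and at 47.6, 50.4 and 55.8 CPM at DMSO 8 h. FKBP2 was at 36.7 CPM in the DMSO 18 h library and at 18.4, 20.6 and 19.3 CPM at DMSO 8 h. The change with TK minus that with DMSO was 0.16 ± 0.25 for HSPA5 and 0.09 ± 0.24 for MANF (log2, SE), so neither difference was larger than its error. In these bulk libraries a change in every cell and a change in some of the cells cannot be told apart.

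**Figure D1:**
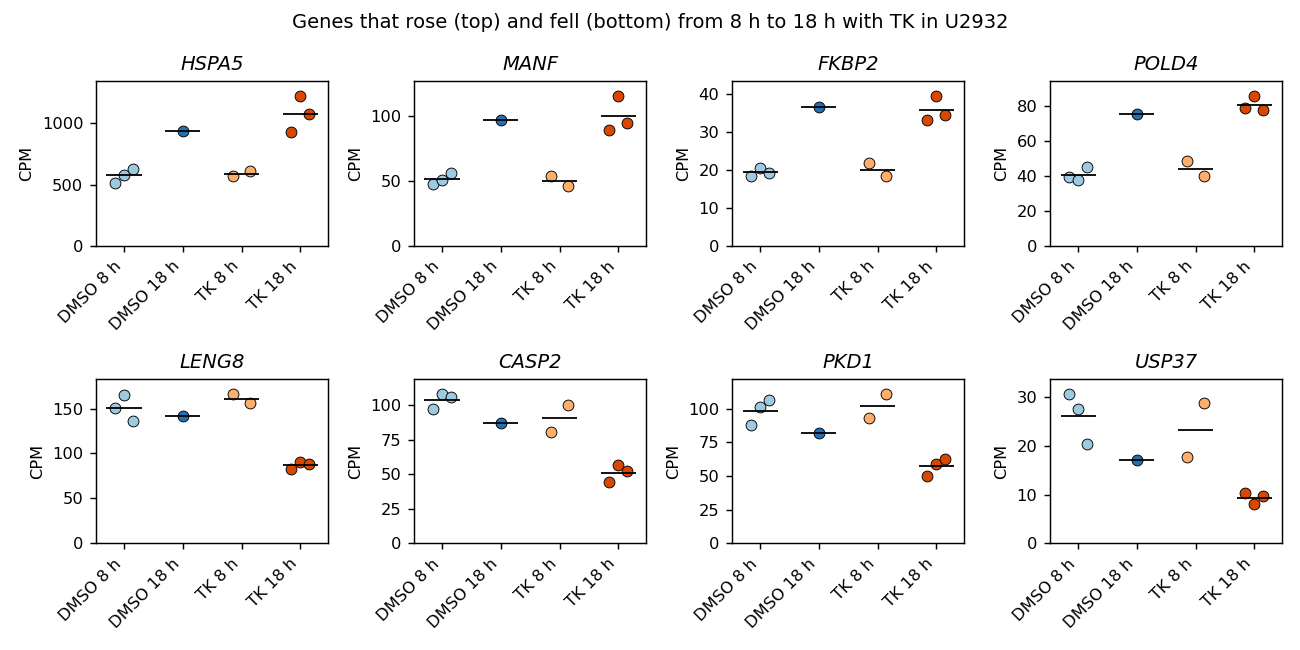
Level in CPM (y axes, from 0) of 4 genes that rose and 4 that fell from 8 h to 18 h with TK, in each U2932 library; points are libraries and lines group means. The DMSO 18 h library sits near TK 18 h for HSPA5 (937 CPM) and near the 8 h libraries for LENG8 (141 CPM).

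Of the 22 genes of the list of endoplasmic reticulum folding, MANF and HSPA5 rose and 0 fell in the joint fit. Fitted on U2932 alone, 9 rose and 1 fell, and 9, 2 and 5 rose without TK 18 h replicates 1, 2 and 3, 7 when TK 8 h replicate 1 was dropped and 0 when TK 8 h replicate 2 was. With all U2932 libraries, that fit called 40.9% of the list higher and 4.55% lower, against 4.45% and 4.13% of all genes tested. In 12 of the 22 every 18 h library lay above both 8 h libraries and in 4 below (54.5% and 18.2%, against 22.5% and 21.7% of all genes tested). The median change of the list was 0.20 with TK and 0.19 with DMSO (log2), against -0.0039 and 0 for all genes tested. The members that passed only on U2932 alone were mostly abundant folding factors. HSP90B1 (GRP94), the Hsp90 of the reticulum, was at 665, 853 and 786 CPM at 18 h and at 443 and 461 CPM at 8 h, a difference of 0.77 ± 0.19 (log2, SE; adjusted p = 0.0734 in the joint fit and 0.0101 on U2932 alone). The calcium-binding chaperone CALR was at 809, 1034 and 933 CPM at 18 h and at 599 and 557 CPM at 8 h, a difference of 0.68 ± 0.19 (adjusted p = 0.0911 and 0.0165). The disulfide isomerase PDIA3 was at 416, 577 and 520 CPM at 18 h and at 308 and 339 CPM at 8 h. For each of these chaperones the lowest 18 h value came from replicate 1 and all 3 were above both 8 h values.

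The other end of the list held the sensors ERN1 and ATF6, the chaperone CANX and SYVN1, a ligase that degrades misfolded proteins, each lower in every 18 h library than in both 8 h ones. ERN1, the sensor IRE1, was at 13.5, 12.2 and 11.9 CPM at 18 h and at 15.5 and 19.6 CPM at 8 h, a difference of -0.49 ± 0.20 (log2, SE; adjusted p = 0.203 in the joint fit and 0.0349 on U2932 alone). XBP1 differed by 0.04, with 165 to 188 CPM at 18 h and 160 and 186 CPM at 8 h. DNAJB9 and EDEM1, which are known targets of XBP1, differed by -0.32 and -0.27 and did not pass either fit. The members thus did not all move one way.

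Some chaperone genes of this list carry a known promoter element, shown here because the unfolded protein response is known to act through it. The endoplasmic reticulum stress element is CCAAT, 9 bases and CCACG, written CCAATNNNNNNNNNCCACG, and it was searched on both strands of the 250 bases before each RefSeq start (GRCh38.p14), a search chosen after the data were seen. It was in 6 of the 21 promoters of the list found in the RefSeq table (28.6%) and in 22 of all 27305 promoters of that table (0.0806%). The list is made of genes known for this response, so this share says nothing on the present cells. The HSPA5 promoter, chr9:125241344-125241593 on the minus strand, is given whole with the fixed bases of the element in capitals.
HSPA5 promoter: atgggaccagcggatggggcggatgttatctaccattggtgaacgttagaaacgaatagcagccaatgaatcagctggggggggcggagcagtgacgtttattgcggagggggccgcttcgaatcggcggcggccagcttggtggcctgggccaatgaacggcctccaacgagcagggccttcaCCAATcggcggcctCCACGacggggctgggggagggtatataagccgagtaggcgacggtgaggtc
The matched elements, each with 5 bases on either side and read in the direction that starts with CCAAT, were at chr9:125241386-125241414 (HSPA5), chr12:103930211-103930239 and chr12:103930316-103930344 (HSP90B1), chr19:12938379-12938407 (CALR), chr22:49918549-49918577 (CRELD2), chr22:28800598-28800626 (XBP1) and chr5:179698773-179698801 (CANX).
HSPA5: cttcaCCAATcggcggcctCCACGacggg
HSP90B1, first: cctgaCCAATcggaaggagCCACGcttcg
HSP90B1, second: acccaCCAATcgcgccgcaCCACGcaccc
CALR: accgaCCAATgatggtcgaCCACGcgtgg
CRELD2: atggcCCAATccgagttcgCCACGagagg
XBP1: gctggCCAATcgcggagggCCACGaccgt
CANX: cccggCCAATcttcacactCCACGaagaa
HSPA5, HSP90B1, CALR and CRELD2, with a match, differed by 0.87, 0.77, 0.68 and 0.53 between the times (log2). XBP1 and CANX have the same letters and differed by 0.04 and -0.25. MANF, with the largest rise, has no match in this window. The match alone therefore did not separate the members by their change.

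The other genes that rose were of mixed function. POLD4, the smallest subunit of DNA polymerase delta, was at 79.0, 85.7 and 77.6 CPM at 18 h and at 48.7 and 39.6 CPM at 8 h, a rise of 0.87 ± 0.17 (log2, SE; adjusted p = 0.0349). NDUFAF3, an assembly factor of respiratory complex I, rose by 0.73, MCCC1, a subunit of the mitochondrial methylcrotonyl-CoA carboxylase, by 0.56 and the nucleolar protein gene NOL7 by 0.61. HNRNPLL, which regulates splicing in lymphocytes and plasma cells, rose by 0.67 and ZCRB1, a component of the minor spliceosome, by 0.63. FBXO16, an F-box protein gene, rose by 1.03 from 2.39 and 1.79 CPM to 3.94 to 4.81 CPM. FBXO16 is below the 5 CPM asked of named genes and is given here after its values were seen. In each of these genes the 18 h and 8 h libraries did not overlap, and 22.5% of all genes tested were also higher in every 18 h library. These genes were called on the same libraries, so this adds no support. All 10 genes that rose are protein coding.

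In the DMSO 18 h library all 10 lay above every DMSO 8 h library (33% of all genes tested did), and 4 of the 10 were within the range of the TK 18 h libraries. Their median change was 0.78 with TK and 0.68 with DMSO. ZCRB1 and NOL7 had smaller changes in DMSO than with TK. ZCRB1 was at 44.2 CPM in the DMSO 18 h library against 56.0 to 63.2 CPM at TK 18 h and 38.8 to 41.1 CPM at DMSO 8 h. Its change was larger with TK by 0.49 ± 0.21 (log2, SE), which did not pass the adjustment over all genes (unadjusted p = 0.0307, adjusted p = 1). NOL7 was at 140 CPM in the DMSO 18 h library, at 177 to 197 CPM at TK 18 h and at 113 to 128 CPM at DMSO 8 h, a difference in change of 0.40 ± 0.19 (adjusted p = 1).

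The 26 genes that fell had larger changes, from -1.69 to -0.59. LENG8, a nuclear protein gene, was at 83.0, 90.2 and 87.85 CPM at 18 h and at 166 and 156 CPM at 8 h, a fall of 0.89 ± 0.14 (log2 change of -0.89, SE; adjusted p = 0.0122). CASP2, the initiator protease caspase-2, was at 44.3, 56.9 and 52.2 CPM at 18 h and at 80.5 and 100 CPM at 8 h (-0.82 ± 0.13, adjusted p = 0.0147). PKD1, which codes for polycystin-1, was at 50.3, 58.8 and 62.4 CPM at 18 h and at 93.1 and 111 CPM at 8 h (-0.84 ± 0.14, adjusted p = 0.0225). PKD1 has near-identical pseudogenes on the same chromosome, so its reads may have been split between copies. In all 26 genes every 18 h library was below both 8 h libraries, as in 21.7% of all genes tested. The 26 were called on these same libraries, so this adds no support.

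USP37, a deubiquitinase known for its part in cell cycle entry, was at 10.4, 8.04 and 9.69 CPM at 18 h and at 17.6 and 28.8 CPM at 8 h, a fall of 1.31 ± 0.24 on the log2 scale (log2 change of -1.31; adjusted p = 0.0225). Its 8 h replicates differed more from each other than the 18 h replicates did. CREBZF, a bZIP factor, and PODXL, the sialomucin podocalyxin, showed the same pattern, with 80.2 and 120 CPM for CREBZF and 40.8 and 60.4 CPM for PODXL at 8 h against 57.1 to 58.5 and 26.4 to 31.2 CPM at 18 h. RAB2B, a small GTPase of the Golgi, fell from 18.1 and 20.5 CPM to 10.5 to 10.9 CPM. GPLD1, a phospholipase that releases anchored proteins, fell from 17.7 and 25.1 to 9.67 to 13.1 CPM, and LTB4R2, a leukotriene B4 receptor, from 10.3 and 12.2 to 5.19 to 6.03 CPM.

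Metabolic and RNA-binding genes made up part of the remaining falls, named after their values were seen. IDH1, the cytosolic isocitrate dehydrogenase, was at 26.5, 27.0 and 25.0 CPM at 18 h and at 40.8 and 41.1 CPM at 8 h (-0.65 ± 0.12, adjusted p = 0.0361). HIF1AN, the hydroxylase that restrains hypoxia-inducible factor, fell from 52.0 and 55.6 to 34.3 to 36.8 CPM. The RNA-binding protein gene CELF1 fell from 160 and 205 to 114 to 117 CPM. The largest change, -1.69 ± 0.24 (adjusted p = 0.0122), was that of MST1, which is low at 1.59 to 1.82 CPM at 18 h and 4.04 and 6.72 CPM at 8 h and has closely related copies. Of the 26, 16 are protein coding, 5 are pseudogenes and 5 are long non-coding or unclassified transcripts. Among the last, AC245060.6 fell by 1.34 on the log2 scale (-1.34) and AC120114.4 by 1.32 (-1.32), and the pseudogene CICP14 had a change of -1.14. Reads of pseudogenes may belong to their parent genes.

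In the solvent most of the genes that fell changed in the same direction. In the DMSO 18 h library 23 of the 26 were below every DMSO 8 h library (30.9% of all genes tested were) and 25 had a change of the same sign, but 1 was within the range of the TK 18 h libraries. Their median change was -0.97 with TK and -0.44 with DMSO (log2), in genes chosen by their change with TK, which favours the larger value with TK. LENG8 was at 141 CPM in the DMSO 18 h library and at 151, 164 and 136 CPM at DMSO 8 h, and its change with TK was lower than that with DMSO by 0.80 ± 0.22 (log2 difference of -0.80). LTB4R2 was at 10.9 CPM in the DMSO 18 h library and at 8.14 to 11.8 CPM at DMSO 8 h (log2 difference of -1.07 ± 0.27). CASP2 was at 87.3 CPM in the DMSO 18 h library and at 97.1 to 108 CPM at DMSO 8 h (log2 difference of -0.57 ± 0.21). IDH1 was the 1 gene inside the TK range, at 25.8 CPM in the DMSO 18 h library and 42.7 to 46.0 CPM at DMSO 8 h. The adjusted p of the difference between TK and DMSO was 1 for all 36 genes, and rises and falls were not tested against each other.

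**Figure D2:**
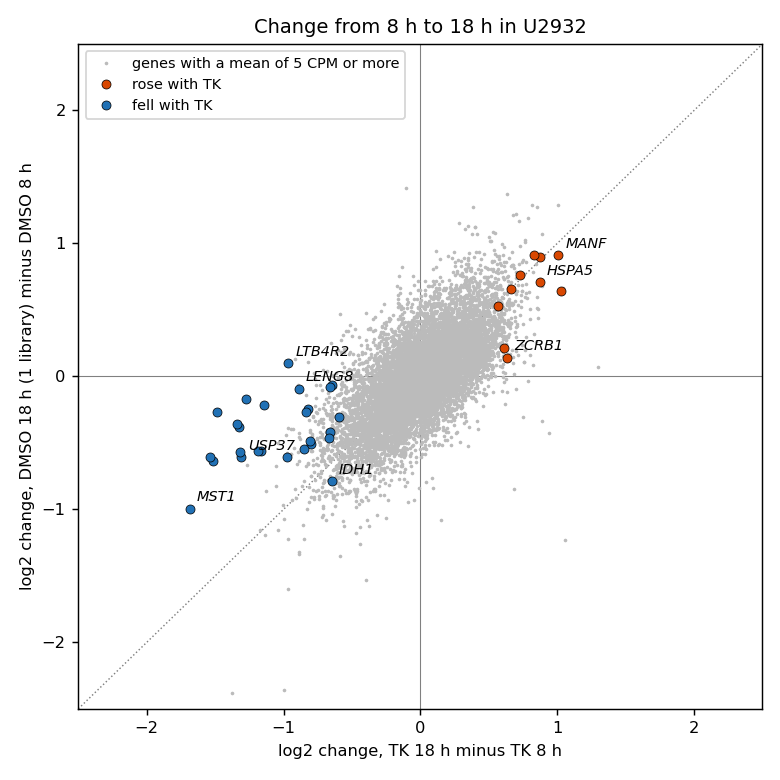
Log2 change from 8 h to 18 h in U2932 with TK (x axis) and with DMSO (y axis, 1 library at 18 h); grey points are the 9790 genes with a mean of 5 CPM or more over the TK libraries, less 5 beyond the axes, coloured points are the 36 genes that rose or fell, and the dotted line marks equal change. The genes that rose lie near the line and most of those that fell lie above it, with smaller changes in DMSO.

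Across genes, the change with time was similar with TK and with DMSO, which share no library. Over the 9838 genes with a mean of at least 5 CPM in the U2932 libraries, Pearson's r between the log2 changes was 0.60 and Spearman's rho 0.68, and 75% of the genes had the same sign, given as a description since genes are not independent. In DMSO alone, 5 genes rose (0.0303%) and 1 fell (0.00607%) from 8 h to 18 h. Without DMSO 8 h replicates 1, 2 and 3 in turn, 2, 2 and 1 genes passed. MZB1, a chaperone of immunoglobulin assembly in the reticulum, rose by 1.29 there (adjusted p = 0.0198). With TK, MZB1 was at 48.9, 77.1 and 61.3 CPM at 18 h and at 37.7 and 33.4 CPM at 8 h, a difference of 0.81 ± 0.18 (log2, SE) that did not pass (adjusted p = 0.055). UCP2, the mitochondrial uncoupling protein, reached 476 CPM in the DMSO 18 h library, above the 247, 349 and 309 CPM of TK 18 h. ABCA7, a lipid transporter, and PRKCB, protein kinase C beta of B-cell receptor signalling, rose in DMSO by 1.13 and 0.84 and differed with TK by 0.40 and 0.34, short of the threshold. PIGR, the remaining gene that rose in DMSO, was at 2.52 CPM in the DMSO 18 h library and at most 0.314 CPM in the other U2932 libraries.

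The test of the difference between TK and DMSO called 1 gene higher (0.00607%) and 0 lower (0%) by edgeR. At an unadjusted p under 0.05 there were 512 of the 16478 genes, 183 higher and 329 lower. DESeq2 called 1 higher and 0 lower. The 1 gene was IGKV3-20, with 0 counts in the DMSO 18 h library, at least 10800-fold lower than at DMSO 8 h against a floor of 3 counts in that library. With TK it was at 677, 747 and 617 CPM at 18 h and at 864 and 569 CPM at 8 h, and the groups overlapped. TK against DMSO at 18 h, which uses the same single library, called IGKV3-20 higher (0.00607%) and PIGR and the insulin receptor gene INSR lower (2 genes, 0.0121%). Without TK 18 h replicates 1, 2 and 3 in turn it called 4, 1 and 1 genes. Both PIGR and INSR were low, with INSR at 0.67 CPM in the DMSO 18 h library and at most 0.178 CPM in the others.

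Among the 41 gene lists described, ribosomal proteins had the highest median change with TK. All 26 genes of that list were higher in every 18 h library than in both 8 h libraries (100%, against 22.5% of all genes tested), with changes from 0.33 to 0.56 and a median of 0.47 (log2). In the joint fit 0 of the 26 passed the adjusted threshold, with RPL3 closest. RPL3 was at 3246, 3224 and 3054 CPM at 18 h and at 2439 and 1888 CPM at 8 h, a difference of 0.55 ± 0.15 (log2, SE; adjusted p = 0.0843). Fitted on U2932 alone, 22 of the 26 rose and 0 fell (84.6% and 0%, against 4.45% and 4.13% of all genes tested). With TK 18 h replicates 1, 2 and 3 left out in turn 8, 0 and 2 passed there, with TK 8 h replicate 1 left out 25 and with TK 8 h replicate 2 left out 0. The median lay between 0.35 and 0.62 in those fits and was 0.18 in the joint fit with the reads outside genes as a covariate. With DMSO the median was 0.14, and RPL3 was at 2325 CPM in the DMSO 18 h library and at 1818, 1855 and 2041 CPM at DMSO 8 h. The median of the members' differences between TK and DMSO was 0.34, and 0 of the 26 passed that test. Ribosomal protein genes have many processed pseudogenes that may share their reads.

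Most nuclear genes of the respiratory chain and most cytosolic chaperones were also higher in every 18 h library, and 0 of either list passed the joint fit. Of 23 respiratory chain genes, 19 were higher in every 18 h library and 0 lower (82.6% and 0%, against 22.5% and 21.7% of all genes tested). The median was 0.44 with TK and 0.26 with DMSO. ATP5F1, a subunit of ATP synthase, was at 377, 393 and 344 CPM at 18 h and at 272 and 258 CPM at 8 h (0.49 ± 0.13, adjusted p = 0.0892). On U2932 alone 12 of the 23 rose and 0 fell (52.2% and 0%, against 4.45% and 4.13% of all genes tested). There 4, 0 and 1 rose without TK 18 h replicates 1, 2 and 3, 18 when TK 8 h replicate 1 was dropped and 0 when TK 8 h replicate 2 was. The list's median was 0.12 with the covariate. The 13 genes of the mitochondrial genome had a median of -0.05, and of 0.49 with the covariate. Of these 13, 1 was higher and 4 lower in every 18 h library (7.69% and 30.8%). Of 23 cytosolic chaperones, 19 were higher and 1 lower in every 18 h library (82.6% and 4.35%). Their median was 0.29 with TK and 0.00 with DMSO. CCT4, a subunit of the chaperonin that folds actin and tubulin, was at 732, 809 and 749 CPM at 18 h, at 600 and 553 CPM at 8 h and at 605 CPM in the DMSO 18 h library. HSP90AA1, the inducible cytosolic Hsp90, differed by 0.47 with TK. On U2932 alone 5 of the 23 rose (21.7%, against 4.45% of all genes tested), HSP90AA1, HSP90AB1, CCT4, CCT7 and TCP1. Without any 1 of the TK 18 h libraries or without TK 8 h replicate 2 it was 0, and without TK 8 h replicate 1 it was 10. With the covariate the median was 0.06.

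**Figure D3:**
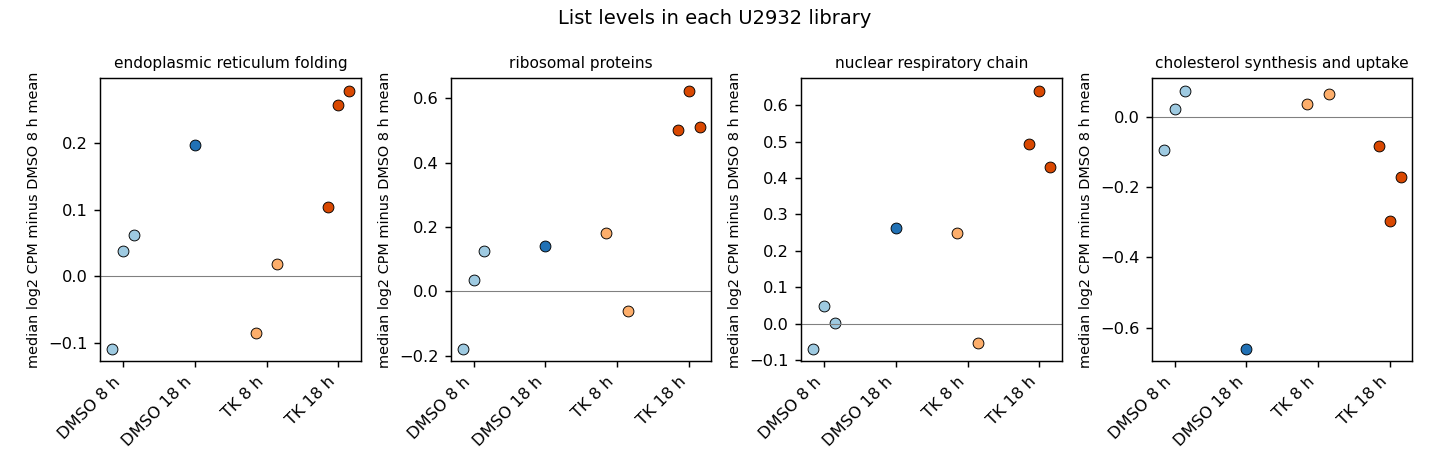
Median over a list's genes of log2 CPM minus the DMSO 8 h mean (y axes, log2), for 4 lists in each U2932 library (points). For ribosomal proteins TK 18 h lies at 0.50 to 0.62, TK 8 h at 0.18 and -0.06 and the DMSO 18 h library at 0.14; for cholesterol genes the DMSO 18 h library is lowest at -0.66.

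Cholesterol genes lay mostly lower at 18 h with TK and with DMSO, and 0 of them passed the test of the difference between TK and DMSO. Of 23 genes of cholesterol synthesis and uptake, 11 were lower and 3 higher in every TK 18 h library. These were 47.8% and 13%, against 21.7% and 22.5% of all genes tested. The list's median was -0.27 with TK and -0.67 with DMSO (log2). SQLE, squalene epoxidase, was at 138, 132 and 136 CPM at TK 18 h and at 187 and 235 CPM at TK 8 h, a difference of -0.64 ± 0.17 (log2, SE; adjusted p = 0.0812). It was at 121 CPM in the DMSO 18 h library and at 197, 238 and 246 CPM at DMSO 8 h. HMGCS1, which makes the precursor of mevalonate, was at 94.7, 74.7 and 88.0 CPM at TK 18 h, at 111 and 147 CPM at TK 8 h and at 49.7 CPM in the DMSO 18 h library. None of the 23 passed the joint fit. On U2932 alone 6 fell and 2 rose (26.1% and 8.7%, against 4.13% and 4.45% of all genes tested). The 2, FDPS and PMVK, are enzymes of the mevalonate pathway, and among the 6 were CYP51A1, HMGCS1, INSIG1, SQLE and SREBF2. There 3, 0 and 1 fell without TK 18 h replicates 1, 2 and 3, 9 when TK 8 h replicate 1 was dropped and 0 when TK 8 h replicate 2 was.

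Genes of cell division lay mostly higher at 18 h with TK, and the median change of DNA replication genes was smaller. Medians with TK were 0.33 over 18 genes of mitotic entry, 0.30 over 21 of the spindle checkpoint and anaphase and 0.30 over 23 of the centromere and kinetochore. With DMSO they were 0.22, 0.20 and 0.33, and with TK but without TK 8 h replicate 2 they were 0.07, 0.13 and 0.16. CCNB1, cyclin B1, was at 403, 368 and 368 CPM at 18 h and at 291 and 202 CPM at 8 h (0.62 ± 0.17, adjusted p = 0.0892). CCNB1 was at 164 CPM in the DMSO 18 h library and at 194, 144 and 160 CPM at DMSO 8 h. CDC20, which activates the anaphase-promoting complex, was at 541, 475 and 469 CPM at 18 h and at 349 and 208 CPM at 8 h. WEE1, the kinase that holds back mitotic entry, went the other way, at 158 to 175 CPM at 18 h and 235 and 284 CPM at 8 h (-0.62 ± 0.15, adjusted p = 0.0684). For CCNB1 and CDC20, TK 8 h replicate 1 lay between replicate 2 and the 18 h libraries. DNA replication genes had a median of 0.10 with TK, with 23 changes positive and 15 negative. Of the 38, 5 were higher and 7 lower in every TK 18 h library (13.2% and 18.4%, against 22.5% and 21.7% of all genes tested). With DMSO the median was 0.36. There 35 of 38 were higher in the 18 h library than in every 8 h library, against 33% of all genes tested. With the covariate the median with TK was -0.27. The G1 cyclin gene CCNE2 was at 10.6, 14.1 and 12.3 CPM at TK 18 h, 17.6 and 28.9 CPM at TK 8 h and 31.4 CPM in the DMSO 18 h library (-0.92 with TK, adjusted p = 0.0904). None of the genes of these lists passed the joint fit.

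**Figure D4:**
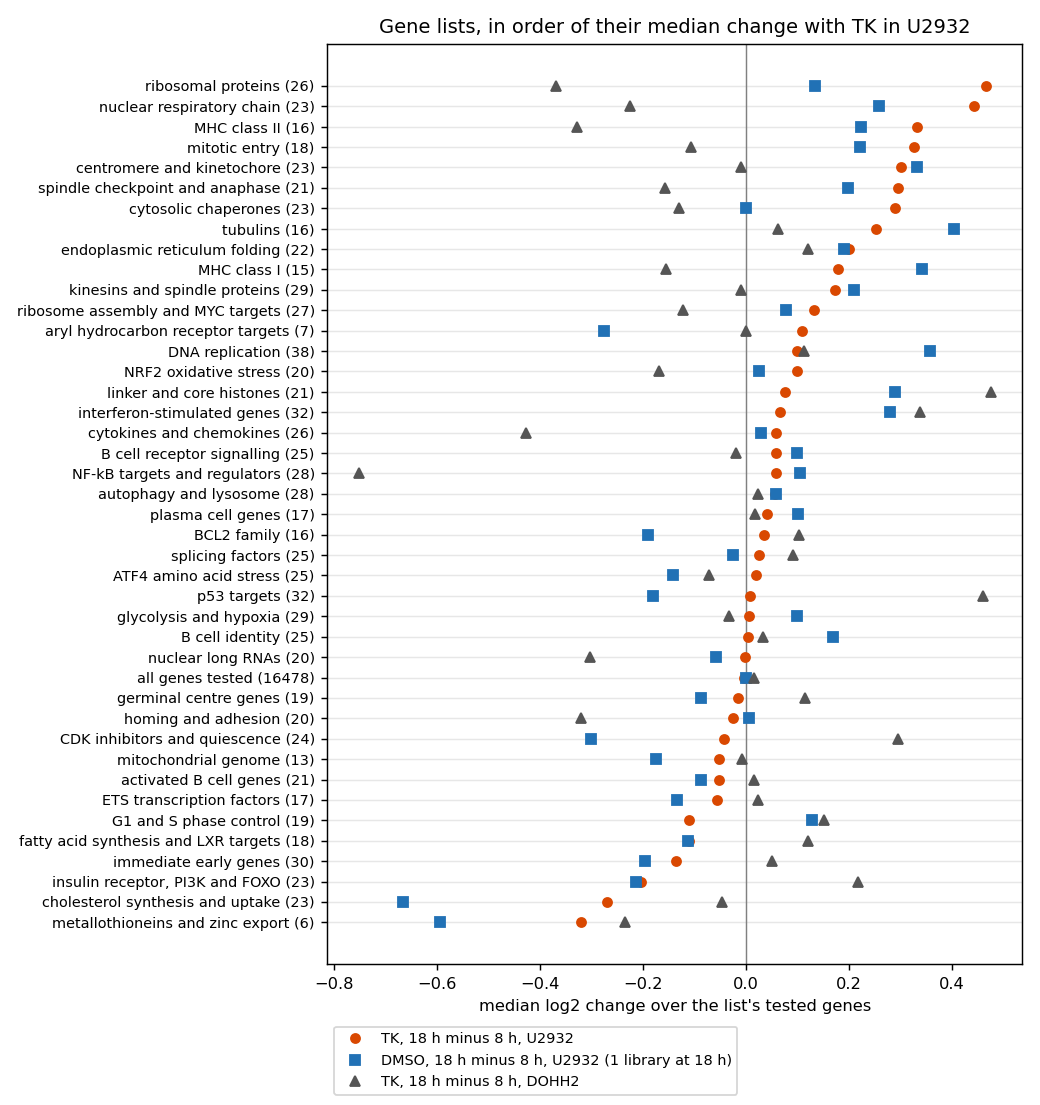
Median log2 change from 8 h to 18 h (x axis) over the tested genes of 41 lists and over all genes tested (number in brackets), with TK in U2932, with DMSO in U2932 (1 library at 18 h) and with TK in DOHH2. Ribosomal proteins are highest in U2932 with TK (0.47) and negative in DOHH2 (-0.37).

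Antigen presentation genes of MHC class II had a median of 0.33 with TK and 0.22 with DMSO. Of the 16, 6 were higher in every TK 18 h library and 0 lower (37.5% and 0%, against 22.5% and 21.7% of all genes tested). On U2932 alone 2 of the 16 rose (12.5%, against 4.45% of all genes tested). The list's median ran from 0.15 to 0.56 with a library left out and turned to -0.24 with the covariate. Of 20 NRF2 targets of oxidative stress, 10 were higher and 2 lower in every 18 h library (50% and 10%). Their median was 0.10 with TK, 0.03 with DMSO and -0.05 with TK and the covariate. On U2932 alone 5 of the 20 rose (25%, against 4.45% of all genes tested), TALDO1, FTL, TXN, PRDX1 and FTH1, and 0 passed the joint fit. Tubulins (16 genes), MHC class I (15) and kinesins and spindle proteins (29) had medians of 0.25, 0.18 and 0.17 with TK. Metallothioneins and zinc export (6) had one of -0.32. With DMSO these 4 medians were 0.405, 0.34, 0.21 and -0.59, and with TK and the covariate -0.13, -0.05, 0.34 and -0.48. None of their members passed the joint fit. Several other lists had medians near that of all genes, in part from members that went both ways. The median was 0.00 over 25 genes of B-cell identity, 0.06 over 25 of B-cell receptor signalling, 0.06 over 28 of NF-kB, 0.01 over 32 targets of p53 and 0.02 over 25 of the ATF4 response to amino acid stress. In the list of B-cell identity 10 of 25 were higher and 3 lower in every 18 h library (40% and 12%), and its median was 0.22 with the covariate. Within them single members stood out without passing the joint fit. BTK, the kinase of the B-cell receptor, was at 127, 136 and 122 CPM at 18 h and at 91.9 and 88.7 CPM at 8 h (0.51 ± 0.12, adjusted p = 0.0645), and reached 119 CPM in the DMSO 18 h library. IRS1, the adaptor of the insulin receptor, was at 7.07 to 8.18 CPM at 18 h and at 12.7 and 13.8 CPM at 8 h (-0.78 ± 0.17, adjusted p = 0.0562). Its list, insulin receptor, PI3K and FOXO, had a median of -0.20 with TK, -0.21 with DMSO and 0.10 with TK and the covariate.

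The change with TK differed between U2932 and DOHH2 in 638 genes that were relatively higher in U2932 (3.87%) and 465 that were lower (2.82%). With TK in DOHH2 itself, 112 genes rose (0.68%) and 146 fell (0.886%), 258 in all. That number was 263, 100 and 96 without DOHH2 TK 18 h replicates 1, 2 and 3 in turn. It was 47, 36 and 1268 without DOHH2 TK 8 h replicates 1, 2 and 3. The difference between the lines was called in 0 genes without U2932 TK 8 h replicate 2, with 2384 at an unadjusted p under 0.05, and in 680, 140 and 591 without U2932 TK 18 h replicates 1, 2 and 3. With DOHH2 libraries left out it was 1969, 725 and 1024 without TK 18 h replicates 1, 2 and 3. Without DOHH2 TK 8 h replicates 1, 2 and 3 it was 294, 494 and 2689. The difference was called in 2 genes when only the 4 groups were fitted. Of the genes that rose in U2932, 6 of 10 differed from DOHH2, and of those that fell, 24 of 26, all in the direction of the U2932 change. The same U2932 libraries enter both comparisons, so these counts are not independent. MANF changed by 1.01 in U2932 and by 0.00 in DOHH2, and HSPA5 by 0.87 and 0.26.

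Ribosomal protein genes differed between the lines in the joint fit. When only the 4 groups were fitted, 2 of all genes tested passed, so the counts of members given here hold for the joint fit. In 20 of the 26 ribosomal protein genes the difference passed the test, each higher in U2932, against 3.87% of all genes tested. Their list had a median change of 0.47 in U2932 and -0.37 in DOHH2. RPS19 changed by 0.53 in U2932 and by -0.73 in DOHH2. Genes of p53 differed the other way, with 8 of 32 targets relatively lower and 1 higher in U2932, against 2.82% and 3.87% of all genes tested. Their median change was 0.01 in U2932 and 0.46 in DOHH2. MDM2, the p53 inhibitor, changed by -0.17 in U2932 and by 1.06 in DOHH2. MIR34AHG, the host transcript of miR-34a, changed by -1.38 and 0.74. Of 28 NF-kB genes, 4 were relatively higher in U2932, against 3.87% of all genes tested. Among the 4 was BCL2A1, a pro-survival BCL2 relative, with 0.66 in U2932 and -1.98 in DOHH2. The reads outside genes moved in opposite directions in the lines. In DOHH2 they came to 12.1 to 13.4 per 100 counts in genes at TK 18 h. At TK 8 h they came to 8.08, 10.5 and 11.97 there. With that share as a covariate the difference between the lines was called in 0 genes, with 1640 at an unadjusted p under 0.05. Since the share moved along with this comparison, the fit cannot cleanly separate it from the difference between the lines.

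The change with time also went with gene length and gene type. From the fifth of tested genes with the shortest exons (200 to 2110 bases in all) to the fifth with the longest (7588 bases or more), the median change with TK was 0.11, 0.10, 0.02, -0.06 and -0.16 (log2). In DMSO it ran from 0.07 to -0.13, and with TK in DOHH2 from -0.04 to 0.13. The genes that rose had a median exon length of 2747.5 bases and those that fell one of 5001.5 bases. Of 2525 long non-coding or other transcripts, 12.1% were higher and 23.8% lower in every 18 h library, against 25% and 21.2% of 12980 protein coding genes. What links length, gene type and the reads outside genes was not tested.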

How the data were processed

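Per the labels, polyadenylated RNA was sequenced. Per the submitters' processing notes the authors used STAR, HTSeq and edgeR with GRCh38.p10, versions not given; annotation release and strand setting were not given in the sources used here. Whether antisense reads were counted together with sense reads is thus not known. The authors deposited raw counts of reads for each gene, as whole numbers; 5 summary counts per library were left out. All 20 libraries were fitted in R 4.3.3 with edgeR 4.0.16 (quasi-likelihood, robust, TMM, 8 groups), on 16478 of 34160 genes with any count (at least 0.288 CPM, which is 10 counts in the median library, in 3 libraries), with Benjamini-Hochberg adjustment. The spread of the single DMSO 18 h library was taken from the other groups. Gene types and exon lengths came from GENCODE v29 (16433 genes matched). List levels used log2 CPM with a prior count of 2. The scripts were tested on simulated data. Named genes were up to 12 per direction with the largest changes past the threshold, a mean of at least 5 CPM and groups that do not overlap, up to 5 for other contrasts, and the leading member of each list; further list members were named after their values were seen. Members, lists and tests were chosen with earlier results of these data known. The alternatives included DESeq2 1.42.0; the covariate, and U2932 alone with a library left out, were chosen after seeing the data.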

Additional observations from a re-analysis of the deposited data

Results flagged for a closer look

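Tests of differences between groups singled out the following results. The change from 8 h to 18 h differed between TK and DMSO in 1 gene, IGKV3-20, with a fitted log2 difference of 17.4 that depends on the prior count, since the single DMSO 18 h library had 0 counts of it. In that library it was at least 11800-fold lower than at TK 18 h, against a floor of 3 counts.

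The change with TK differed between U2932 and DOHH2 in 1103 genes. Among genes with a mean of 5 CPM or more over the U2932 TK libraries, the largest differences towards U2932 were CPVL at 5.12 (0.66 in U2932, -4.46 in DOHH2), KIAA1324L at 3.93 (0.34 and -3.59), CLDN14 at 3.23 (0.60 and -2.64), BCL2A1 at 2.64 (0.66 and -1.98) and CFAP46 at 2.56 (0.36 and -2.20), all log2. In the other direction they were ARHGAP5 at -1.94 (-0.57 and 1.37), TP53INP1 at -1.84 (-0.91 and 0.93), USP37 at -1.72 (-1.31 and 0.41), NCR3LG1 at -1.69 (-0.89 and 0.81) and GATAD2B at -1.62 (-0.95 and 0.67). CPVL, KIAA1324L, CLDN14 and CFAP46 were near 0 in DOHH2, with means of 0, 0.0125, 0.0109 and 0.0829 CPM at TK 18 h and 0.0683, 0.233, 0.0717 and 0.397 CPM at TK 8 h. Their fitted changes there depend on the prior count, and they met the level asked through U2932. ARHGAP5 was also low in DOHH2, at 0.747 and 0.290 CPM. Of these 10 genes, USP37 passed the test in U2932 itself.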

How the results depend on the processing

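The number of genes called moved widely with the setting. For TK at 18 h against 8 h (36 genes), RLE scaling gave 38, no filter 739, a filter at 50 counts 77, U2932 libraries alone 1415, the 2 groups alone 1292, a test against a 1.5-fold change 0 (371 at an unadjusted p under 0.05), DESeq2 885, the covariate 0 and U2932 alone with the covariate 0; with a library left out it was 0 to 118, and on U2932 alone 512 and 217 without TK 18 h replicates 1 and 3 and 2 to 2692 overall. For DMSO (6 genes) the same settings gave 8, 332, 4, 94, 41, 2 and 148, the covariate 3, and 1 to 2 with a library left out. For the difference between TK and DMSO (1 gene), no filter gave 16, U2932 alone 2, the groups alone 2, and 1 with each library left out. For TK against DMSO at 18 h (3 genes), no filter gave 102, a filter at 50 counts 1, U2932 alone 5, the groups alone 179, the 1.5-fold test 1, DESeq2 60, and 1 to 4 with a library left out. For the difference between lines (1103 genes), no filter gave 1769, the groups alone 2, the 1.5-fold test 1, DESeq2 2192, the covariate 0, and 0 to 2689 with a library left out. For TK in DOHH2 (258 genes), no filter gave 861, the groups alone 7, the 1.5-fold test 8, DESeq2 880, and 36 to 1268 with a library left out. The cause was not tested.

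With the replicate block, TK at 18 h against 8 h gave 30 genes, 15 of them among the 36, DMSO 14, the difference between TK and DMSO 2, TK against DMSO at 18 h 2, the difference between lines 640 and TK in DOHH2 277; the numbers 1 and 2 are only numbers here, with deviations that correlated at -0.114 over 10088 genes. Of 36 genes called, 0 changed sign and each lost its call under 3 to 7 of the 11 or 13 alternatives run for it. Among other named genes, signs turned with the covariate for ABCA7 (-0.0486), ARHGAP5 (0.35), TP53INP1 (0.067), NCR3LG1 (0.23), BCL2L11 (0.0128), RFXANK (-0.11), MT-ND4L (0.27) and TALDO1 (-0.0106), and for IGKV3-20 without TK 8 h replicate 1 (0.26, against -0.34 without replicate 2). With 2 libraries at TK 8 h and 1 at DMSO 18 h, the small number of libraries limits the precision. What part the depth has in it was not tested.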
